A study of Mus musculus with 12 samples.

Results

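The complement genes described here are 9 of the 47643 genes in a bulk RNA-seq. count table of mouse osteoclasts. They were chosen by name, with earlier results of these data known. They are the C1q chains C1qa, C1qb and C1qc, the components C3, Cfb and Cfp, and the receptors C3ar1, C5ar1 and Cd93. The table holds 12 libraries in 3 groups of 4 replicates, and all 3 groups are osteoclast cultures of bone marrow-derived monocytes (BMMs) from BALB/c WT mice, grown with M-CSF and RANKL and harvested on day 3. OCsCtr cultures were untreated, OCsEo cultures received 2 sorted eosinophils per BMM and OCsEoS cultures received eosinophil supernatant at a 1 to 2 dilution. Both stimuli were added on day 0 and left for 48 h, and the cultures were then washed and given new medium for the last day. Whether the wash removed all added eosinophils was not tested. The eosinophils were Siglec-F+ CD125int granulocytes sorted from IL-5tg/4get mice, a hyper-eosinophilic strain, with blood and marrow cells pooled, so that they are cells of a cytokine-transgenic host, and the supernatant was the medium of such sorted cells. The age of the mice that gave the BMMs is not given in the sources used here. The study's methods call the 4 libraries of a group biological replicates, and the labels do not tie a library to a mouse.

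Complement is a set of plasma and tissue proteins that label microbes, immune complexes and dying cells for removal. The classical pathway starts when C1q, assembled from the A, B and C chains encoded by C1qa, C1qb and C1qc, binds its target, and unlike most complement proteins, C1q is made mainly by macrophages and other myeloid cells. All pathways meet at C3, which the alternative pathway cleaves with factor B (Cfb), while properdin (Cfp) holds the alternative convertase together. The small fragments C3a and C5a signal through the G protein-coupled receptors encoded by C3ar1 and C5ar1, and Cd93 encodes a surface glycoprotein of myeloid and endothelial cells first described as a candidate C1q receptor. Osteoclasts arise from the same monocytic precursors as macrophages.

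The total counts on genes were 27837530 to 40327869 per library, at which 3 counts, taken as the floor of detection, equal 0.0769 to 0.107 counts per 1000000 counts (CPM, scaled by TMM), a limit that covers counting error only. Replicates of a group differed by more than sampling noise in all 18 pairs. The labelled cell type was checked against its markers: all 10 osteoclast markers were measured in these cultures, with a summed level of 28358 to 34496 CPM in OCsCtr, 18093 to 23205 CPM in OCsEo and 14942 to 22171 CPM in OCsEoS, and 8 of the 10 were called lower in each stimulated group. The 10 macrophage markers summed to 5273 to 5798 CPM in OCsCtr, 5807 to 7250 CPM in OCsEo and 5501 to 6488 CPM in OCsEoS. With eosinophils 2 of these markers were called higher and 0 lower, and with the supernatant 4 were called higher and 0 lower. Cd68 was lower in every OCsEoS library than in every control (log2 fold change -0.33, adjusted p = 6.16e-04, edgeR) but was not called. Most of each sum came from Lyz2, with means of 4251 CPM in OCsCtr, 4921 CPM in OCsEo and 4775 CPM in OCsEoS. Among all genes tested, 3.27% were called higher and 2.61% lower in OCsEo, and 3.63% and 4.11% in OCsEoS. Genes of the osteoclast and macrophage lists thus differed between the groups, and their part in the results was not tested. In such bulk libraries, fewer cells of a type and less RNA per cell cannot be told apart.

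The C1q chain genes form a cluster of 18675 bases on the minus strand of chromosome 4 (GRCm38), at chr4:136880129-136898803, with C1qb (chr4:136880129-136886187), C1qc (chr4:136889804-136893065) and C1qa (chr4:136895917-136898803) separated by gaps of 3616 and 2851 bases. Each chain gene has 3 merged exons in the GENCODE vM21 annotation, and no other annotated gene overlaps them. The receptor genes lie elsewhere on the minus strand, C3ar1 at chr6:122847138-122856161, C5ar1 at chr7:16246743-16259540 and Cd93 at chr2:148436640-148443563. C3 lies at chr17:57203970-57228136, Cfb at chr17:34856374-34862518 and Cfp at chrX:20925454-20931555.

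The RefSeq promoter windows of C1qb and C1qc are shown because these neighboring genes moved in the same direction in the comparisons that follow. Each window covers 250 bases before to 50 bases after the RefSeq gene start, 5′ to 3′ on the gene's own strand (GRCm38.p6), at chr4:136886151-136886450 for C1qb and at chr4:136892865-136893164 for C1qc. Capitals mark the PU.1 core (GAGGAA), searched on both strands, and PU.1 is the main lineage factor of myeloid cells. A TATA box (TATAAA) was searched as well.
C1qb: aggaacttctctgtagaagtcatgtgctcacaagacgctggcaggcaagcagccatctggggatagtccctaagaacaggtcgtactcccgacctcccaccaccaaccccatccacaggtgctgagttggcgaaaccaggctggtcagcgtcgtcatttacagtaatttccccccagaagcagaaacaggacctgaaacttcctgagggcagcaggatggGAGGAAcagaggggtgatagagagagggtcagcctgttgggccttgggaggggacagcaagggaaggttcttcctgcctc
C1qc: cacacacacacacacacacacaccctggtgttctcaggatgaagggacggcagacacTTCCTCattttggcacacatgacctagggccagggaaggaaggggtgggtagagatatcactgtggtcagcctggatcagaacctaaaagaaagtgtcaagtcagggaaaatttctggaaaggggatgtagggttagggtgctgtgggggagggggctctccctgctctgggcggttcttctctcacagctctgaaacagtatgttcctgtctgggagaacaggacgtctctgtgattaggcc

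The PU.1 core lay 30 bases before the RefSeq start of C1qb and, on the opposite strand, 193 bases before the RefSeq start of C1qc. These starts differ from those of the GENCODE coordinates above, so the distances hold for the RefSeq starts only. Neither window held the TATA hexamer. Of the other members with a window, Cfp held the PU.1 core 2 times, and C3, C3ar1 and C5ar1 held 0. The TATA hexamer was found in the windows of C3 and C3ar1 but not in those of Cfp and C5ar1. C1qa, Cfb and Cd93 were not analysed here for motifs. Such short motifs are common, and of 32851 RefSeq promoter windows of the same length 28.3% held the PU.1 core and 13.6% the TATA hexamer. The motifs are a description of the letters in the windows only.

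The levels of the complement genes in unstimulated osteoclasts spanned a wide range. Per kilobase of gene length, Cfp stood far above the other members with 264 ± 21.1 CPM per kb (SD, n = 4), above 97.6% of the 13681 genes tested. C3ar1 followed with 21.4 ± 3.25 CPM per kb, C1qa with 16.1 ± 6.36, C5ar1 with 10.4 ± 1.37, C1qc with 6.73 ± 2.23, C3 with 5.62 ± 1.67, Cd93 with 4.93 ± 0.79 and C1qb with 3.57 ± 1.76 CPM per kb. From C3ar1 down to C1qb, the ranges of each pair of neighbors in this order overlapped between libraries, while Cfp at the top and Cfb at the bottom overlapped with no neighbor. Some genes further apart in the order overlapped as well, such as C1qa (lowest library 9.27 CPM per kb) and C1qc (highest 9.42). In contrast, C3ar1 lay wholly above C5ar1 and all genes after it. In OCsEoS the order differed, and C1qa came before C3ar1 with 42.4 ± 15.7 against 31.8 ± 3.61 CPM per kb, although the ranges of these 2 genes also overlapped there. C1qb was the lowest of the chains per kilobase in each group.

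Addition of eosinophils was compared with no stimulus first, to ask how the transcripts of the cultures differed between these groups. Of the 8 members that passed the filter on low counts, 4 were called higher in OCsEo and 0 lower, where a call needs both an adjusted p below 0.05 and a log2 fold change beyond 0.5 in either direction (edgeR's quasi-likelihood test, Benjamini-Hochberg adjustment over all genes tested). Among all genes tested, 3.27% were called higher and 2.61% lower. The 4 were C1qc and the receptors C3ar1, C5ar1 and Cd93, whereas C3 had a lower mean and was not called. Without the library OCsCtr 2, the number called fell to 2, C3ar1 and Cd93. The median log2 fold change of the 8 members tested was 0.61, against -0.0072 over all genes tested. Because the members were chosen with earlier results of these data known, the shares and medians beside them are a description.

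With the supernatant, 5 of the 8 members were called higher and 0 lower, against 3.63% of all genes tested called higher and 4.11% called lower. These were C1qa, C1qb and C1qc together with C3ar1 and C5ar1. Without OCsCtr 2 the number called fell to 3, the C1q chains. The median log2 fold change of the members was 0.55, against -0.0055 over all genes tested, again as a description. The 3 chains lie in 1 gene cluster and their levels were correlated, so their calls are not separate results. Both stimulated groups were compared with the same 4 OCsCtr libraries, so the 2 comparisons are not independent. Between the stimulated groups, edgeR called 0 of the 8 members, against 0.38% of all genes tested called in either direction. DESeq2 on the same 12 libraries also called 0 members. With no filter on low counts, edgeR called 2, C1qa and C1qc, and the share of all genes called in that fit is not given here. At an unadjusted p under 0.05, 3 members differed between OCsEoS and OCsEo, C1qa and C1qc with a higher and Cd93 with a lower level in OCsEoS, against 11.1% of all genes tested in either direction.

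**Figure D1:**
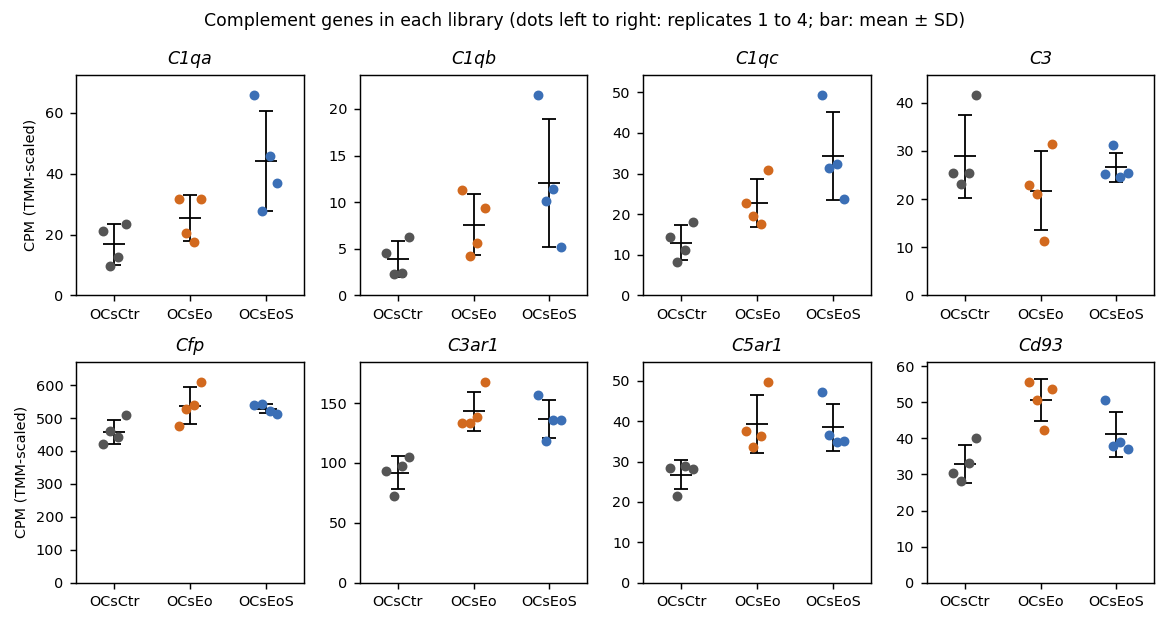
Level of 8 complement genes in CPM (y axis, from 0) in each library, with dots for replicates 1 to 4 of OCsCtr, OCsEo and OCsEoS and black bars for the mean ± SD (n = 4). All 4 libraries of each stimulated group lie above the OCsCtr libraries for C3ar1 and C5ar1, while the C1q chains differ more between the libraries of a group.

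C1qa, which encodes the A chain, was measured at 21.3, 9.64, 12.7 and 23.4 CPM in OCsCtr replicates 1 to 4, at 31.8, 20.5, 17.4 and 31.7 CPM in OCsEo and at 66.0, 27.6, 45.7 and 37.1 CPM in OCsEoS. Every OCsEoS library lay above every OCsCtr library, whereas OCsEo replicates 2 and 3 lay within the OCsCtr range. The group means were 16.8 ± 6.61, 25.4 ± 7.48 and 44.1 ± 16.4 CPM (SD, n = 4). C1qa was called higher in OCsEoS, with a log2 fold change of 1.39 ± 0.27 (SE) and an adjusted p of 7.86e-04 in edgeR. In OCsEo its log2 fold change of 0.60 ± 0.27 did not pass (adjusted p = 0.135, edgeR), although it was called there without the filter on low counts (adjusted p = 0.00294, edgeR).

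C1qb, the gene of the B chain, had the fewest counts of the chains, with 4.54, 2.34, 2.36 and 6.31 CPM in OCsCtr, 11.3, 4.20, 5.59 and 9.35 CPM in OCsEo, and 21.5, 10.1, 11.4 and 5.16 CPM in OCsEoS. Both stimulated groups overlapped the control range, because OCsEo 2 and OCsEo 3 and, in the supernatant group, OCsEoS 4 lay below OCsCtr 4. The means were 3.89 ± 1.92, 7.60 ± 3.27 and 12.1 ± 6.87 CPM (SD, n = 4). In OCsEoS the gene was called higher, by a log2 fold change of 1.63 ± 0.38 (SE; adjusted p = 0.00407, edgeR). In OCsEo it was at 0.97 ± 0.38 (SE; adjusted p = 0.0912, edgeR), past the fold threshold but not the p threshold. It was called there without OCsCtr 4 (1.31), OCsEo 2 (1.17) or OCsEoS 4 (0.97), by DESeq2 on the 2 groups alone (adjusted p = 0.0184) and without the filter on low counts (adjusted p = 0.00202, edgeR).

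C1qc, which encodes the C chain, was the chain called in both comparisons. It was at 14.4, 8.13, 11.2 and 18.2 CPM in OCsCtr, at 22.9, 19.6, 17.7 and 30.8 CPM in OCsEo, and at 49.4, 31.4, 32.3 and 23.8 CPM in OCsEoS. All OCsEoS libraries were above the controls, and OCsEo 3 was the single OCsEo library below OCsCtr 4. The means of 13.0 ± 4.31, 22.7 ± 5.81 and 34.2 ± 10.8 CPM (SD, n = 4) gave log2 fold changes of 0.81 ± 0.23 (SE; adjusted p = 0.0171, edgeR) in OCsEo and 1.398 ± 0.23 (SE; adjusted p = 1.84e-04, edgeR) in OCsEoS. The call in OCsEo was lost without any 1 of OCsCtr 2 (log2 fold change 0.64, adjusted p = 0.0609, edgeR), OCsCtr 3 (0.74, adjusted p = 0.0541) or OCsEo 4 (0.63, adjusted p = 0.0730).

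For all 3 chains the supernatant group had the higher mean of the stimulated groups, but none of these differences passed. The log2 difference of OCsEoS less OCsEo was 0.80 (95% interval 0.25 to 1.34, adjusted p = 0.224, edgeR) for C1qa, 0.67 (-0.10 to 1.44, adjusted p = 0.526) for C1qb and 0.59 (0.13 to 1.05, adjusted p = 0.291) for C1qc. These intervals leave room for a difference of more than 1 on the log2 scale as well as for a small one.

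The levels of the 3 chains were correlated from library to library. In OCsCtr, replicate 2 had the lowest and replicate 4 the highest level of each chain, and the 4 libraries stood in the same order for C1qa, C1qb and C1qc. In OCsEoS, replicate 1 was the highest library for each chain, but replicate 2 was the lowest for C1qa and replicate 4 for C1qb and C1qc. In OCsEo the order of the libraries differed between the chains. The Pearson correlation of log2 CPM between chains over the 12 libraries was 0.90 to 0.94, and 0.82 to 0.88 after removal of the group means. These libraries share 1 count table and 1 gene cluster, and the correlations are given as a description. Summed over the chains, C1q transcripts reached 20.1 to 47.9 CPM in OCsCtr, 40.7 to 71.9 CPM in OCsEo and 66.0 to 137 CPM in OCsEoS, so that the summed level of each OCsEoS library exceeded that of each control.

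**Figure D2:**
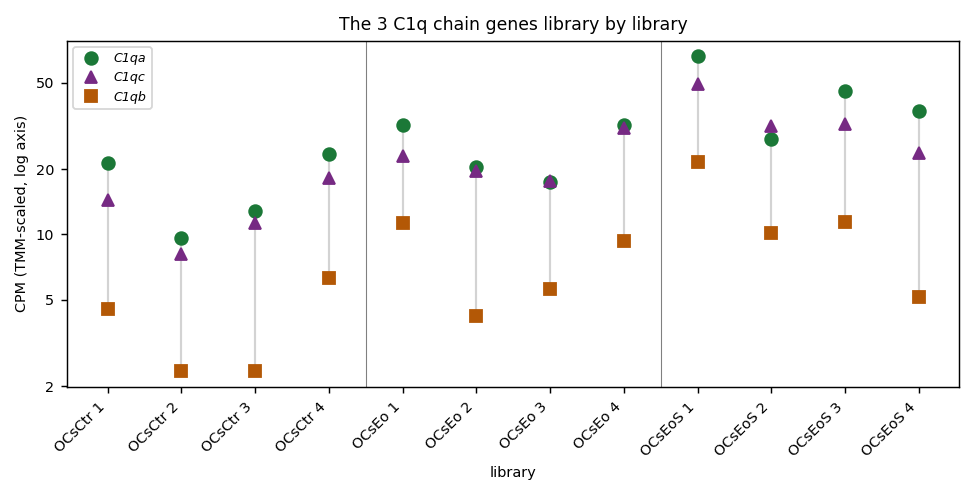
CPM (y axis, log scale) of C1qa (circles), C1qc (triangles) and C1qb (squares) in each of the 12 libraries (x axis), with a grey line joining the chains of a library. C1qb is the lowest chain in every library, and C1qa and C1qc lie close together from the lowest library, OCsCtr 2, to the highest, OCsEoS 1.

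C1q protein holds the A, B and C chains in equal number, but their transcripts were not measured in equal amounts. C1qb made up 11.3 ± 1.75% of the C1q counts in OCsCtr, 13.3 ± 3.13% in OCsEo and 12.7 ± 3.51% in OCsEoS (SD, n = 4), with 7.81% to 17.1% in single libraries. On a per kilobase scale, the log2 ratio of C1qb to C1qa was -2.21 ± 0.24 in OCsCtr, -1.86 ± 0.35 in OCsEo and -2.04 ± 0.62 in OCsEoS, and the ratio of C1qc to C1qa was -1.23 ± 0.17, -1.03 ± 0.23 and -1.23 ± 0.36 (SD, n = 4). The ranges of single libraries overlapped between the 3 groups for both ratios, and no test of the ratios was made. Within 100 kb of the cluster, Zbtb40 was the only annotated protein-coding neighbor that passed the filter on low counts. It lay 80928 bases away and was at 4.17 CPM in OCsCtr, 4.27 CPM in OCsEo and 3.65 CPM in OCsEoS, with log2 fold changes of 0.03 ± 0.22 and -0.19 ± 0.22 (SE; adjusted p = 0.951 and 0.600, edgeR).

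C3, the central component, did not pass the test in any comparison. It was at 25.5, 23.1, 25.4 and 41.7 CPM in OCsCtr, at 23.0, 21.1, 11.4 and 31.4 CPM in OCsEo and at 25.2, 31.2, 24.7 and 25.4 CPM in OCsEoS. OCsCtr 4 stood above the other controls, and the ranges of the 3 groups overlapped. The means were 28.9 ± 8.59, 21.7 ± 8.21 and 26.6 ± 3.05 CPM (SD, n = 4), with log2 fold changes of -0.42 ± 0.22 in OCsEo (SE; adjusted p = 0.209, edgeR) and -0.12 ± 0.22 in OCsEoS (SE; adjusted p = 0.756, edgeR). Without OCsEo 4, C3 was called lower in OCsEo (log2 fold change -0.65, adjusted p = 0.0456, edgeR), and without OCsCtr 4 its change in OCsEoS turned to 0.11.

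Cfp, which encodes the alternative pathway activator properdin, was the most abundant member and changed little. Its levels of 422, 461, 443 and 508 CPM in OCsCtr compared with 476, 527, 540 and 610 CPM in OCsEo and 538, 542, 521 and 513 CPM in OCsEoS. The lowest OCsEoS library was above the highest control, while OCsEo 1 fell inside the control range. The log2 fold changes of 0.23 ± 0.07 (SE; adjusted p = 0.0248, edgeR) and 0.21 ± 0.07 (SE; adjusted p = 0.0365, edgeR) passed the p threshold in both comparisons but not the fold threshold, so Cfp was not called.

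Cfb, the gene of factor B, was at or near the floor in these cultures and did not pass the filter. It had 8, 5, 0 and 0 counts in OCsCtr, 8, 0, 0 and 11 counts in OCsEo and 0 counts in each OCsEoS library, which allows a level of up to 0.107 CPM in the shallowest of them. Of the 2825 exonic bases of Cfb, 2246 (79.5%) also belong to the annotated gene Gm20547 on the same strand, which was listed at 0 counts, so reads of this locus may have been left uncounted and the level of Cfb is uncertain.

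The anaphylatoxin receptor gene C3ar1 was higher in both stimulated groups with no overlap. It was at 93.2, 72.4, 97.3 and 105 CPM in OCsCtr, at 133, 134, 138 and 168 CPM in OCsEo and at 157, 119, 136 and 135 CPM in OCsEoS. The means of 92.0 ± 14.0, 143 ± 16.5 and 137 ± 15.6 CPM (SD, n = 4) gave log2 fold changes of 0.64 ± 0.10 in OCsEo (SE; adjusted p = 2.81e-04, edgeR) and 0.57 ± 0.10 in OCsEoS (SE; adjusted p = 5.26e-04, edgeR). Between the stimulated groups the log2 difference was -0.07, with a 95% interval of -0.28 to 0.15.

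C5ar1, the gene of the main C5a receptor, followed the same order. Its levels were 28.4, 21.5, 28.9 and 28.2 CPM in OCsCtr, 37.4, 33.5, 36.3 and 49.7 CPM in OCsEo and 47.3, 36.5, 34.9 and 35.1 CPM in OCsEoS. All 8 stimulated libraries were above all 4 controls. With means of 26.8 ± 3.53, 39.2 ± 7.18 and 38.5 ± 5.92 CPM (SD, n = 4), C5ar1 rose by a log2 fold change of 0.55 ± 0.13 in OCsEo (SE; adjusted p = 0.00551, edgeR) and of 0.52 ± 0.13 in OCsEoS (SE; adjusted p = 0.00608, edgeR). Both values stand close to the fold threshold, and C5ar1 was no longer called in OCsEo without OCsCtr 2 (0.46) or OCsEo 4 (0.42), nor in OCsEoS without OCsCtr 2 (0.44) or OCsEoS 1 (0.42). C3ar1 lost its call in OCsEoS without OCsCtr 2 (0.48).

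Cd93 was called with eosinophils but not with supernatant. It was at 30.4, 28.1, 33.1 and 40.2 CPM in OCsCtr, at 55.6, 50.6, 42.4 and 53.7 CPM in OCsEo and at 50.5, 37.7, 38.9 and 37.1 CPM in OCsEoS. The OCsEo libraries were all above the controls, and in OCsEoS replicate 1 alone was. The log2 fold change was 0.62 ± 0.12 in OCsEo (SE; adjusted p = 0.00123, edgeR) and 0.32 ± 0.12 in OCsEoS (SE; adjusted p = 0.0620, edgeR). The difference between these groups itself was -0.30 (95% interval -0.55 to -0.05) and did not pass (adjusted p = 0.332, edgeR), so a difference between the stimuli in Cd93 was not shown.

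**Figure D3:**
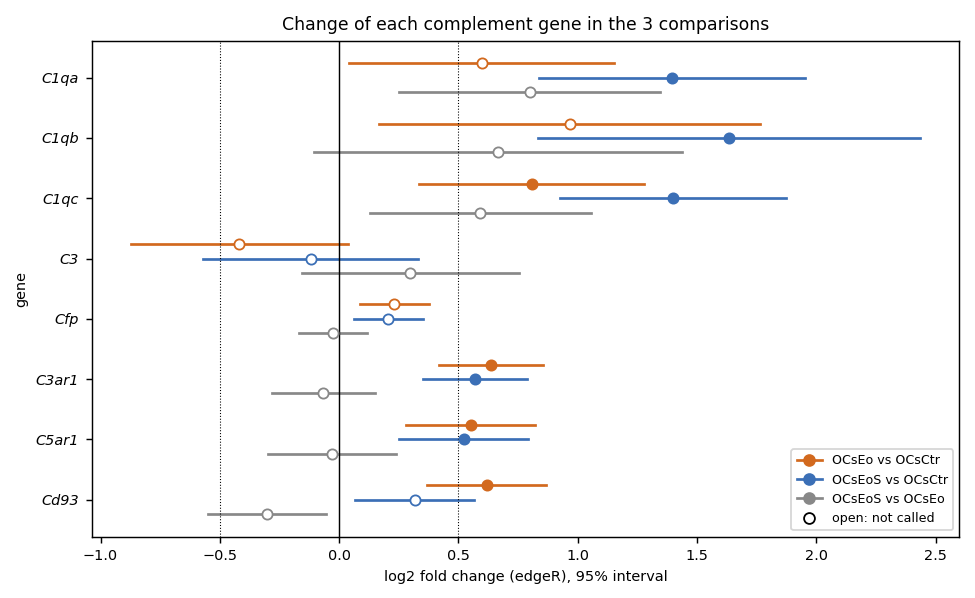
Log2 fold change (x axis) of 8 complement genes (y axis) in the 3 comparisons, with lines for the 95% interval, filled points for called genes, open points for genes not called and dotted lines at the fold threshold of 0.5. The C1q chains lie furthest to the right in OCsEoS vs OCsCtr, between 1.39 and 1.63, and C3ar1 and C5ar1 lie between 0.52 and 0.64 in both comparisons with OCsCtr.

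In terms of separation, 3 members (C3ar1, C5ar1 and Cd93) had all OCsEo libraries above all OCsCtr libraries, against 10.5% of all genes tested. In OCsEoS, 5 members did so (C1qa, C1qc, Cfp, C3ar1 and C5ar1), against 12.6% of all genes tested. Single libraries had a common tendency across members. OCsCtr 2 was the lowest control for 7 of the 8 members, with Cfp as the exception, and OCsCtr 4 was the highest control for 7, with C5ar1 as the exception. OCsEoS 1 was the highest of its group for the 3 chains and the 3 receptors. The summed macrophage markers were 5321 CPM in OCsCtr 2, within the 5273 to 5798 CPM of the controls and not the lowest of them, 5798 CPM in OCsCtr 4, the highest control, and 6488 CPM in OCsEoS 1, the highest OCsEoS library, and their part in the levels of the members was not tested.

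Because eosinophils were added to the OCsEo cultures, the markers of the added cells are given beside the results. Epx, the defining eosinophil peroxidase gene, had 0 to 6 counts in OCsCtr, 0 to 18 in OCsEo and 0 in every OCsEoS library. Of the 10 eosinophil markers 5 could be tested, and 2 of them were called higher in OCsEo, Siglecf from 0.428 to 2.94 CPM and Alox15 from 0.300 to 10.98 CPM (group means), while Prg2 was called lower in OCsEoS, from 5.53 to 0.815 CPM. The summed eosinophil markers reached 57.1 to 73.7 CPM in OCsCtr, 60.1 to 82.2 CPM in OCsEo and 49.3 to 55.5 CPM in OCsEoS, most of it from Ccr3. Of the 10 neutrophil markers, 2 were called higher in OCsEo, where 6 were higher and 0 lower at an unadjusted p under 0.05 and all 10 had a fitted change above 0. In OCsEoS edgeR and DESeq2 each called 0 of them, with 1 higher and 3 lower at an unadjusted p under 0.05. The sums of this list were 338 to 485, 493 to 644 and 386 to 446 CPM in the 3 groups. Of the dendritic cell markers 1 was called lower in each stimulated group, and edgeR called 0 of the 5 T cell and 6 B cell markers tested in either stimulated group, while DESeq2 called 1 T cell marker higher in OCsEoS. At an unadjusted p under 0.05, 1 T cell marker was higher in each stimulated group, and 1 B cell marker was higher and 1 lower in OCsEo. Among all genes tested, 3.27% were called higher and 2.61% lower in OCsEo, and 3.63% and 4.11% in OCsEoS. The shares at an unadjusted p are not given here, so the marker counts at that threshold are a description. The part of the eosinophil and neutrophil lists in the results with OCsEo was not tested.

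The other complement genes were taken from a list of 51 genes, of which 22 passed the filter on low counts. Of the 29 that did not pass, 13 were at 0 in all libraries, and none had more than 64 counts over the 12 libraries. The genes tested included 6 of 17 listed for the classical and lectin pathways, 1 of 7 for the terminal pathway, 6 of 12 regulators and 9 of 11 other receptors. C4a and C4b, which encode C4, had 21 and 20 counts in all, Hc, the gene of C5, had 3 and Cfd, the gene of factor D, had 10. Thus C1q chain, C3 and properdin transcripts were measured in these cultures, whereas the counts for C4, C5 and factor D were at or near the floor. Whether reads of C4a were told apart from those of C4b was not tested.

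Among the 22 other complement genes, edgeR called 0 higher in either stimulated group. At an unadjusted p under 0.05, 2 were higher and 3 lower in OCsEo, and 2 higher and 5 lower in OCsEoS. The share of all genes tested at this threshold is not given here for these comparisons. DESeq2 called 0 higher in OCsEo and 1 in OCsEoS, Cd55, which encodes an inhibitor of the C3 convertases. With eosinophils 1 was called lower, against 2.61% of all genes tested, and with the supernatant 2, against 4.11%. Their median log2 fold change was -0.05 in OCsEo and -0.16 in OCsEoS. Between OCsEoS and OCsEo, 0 of the 22 were called by edgeR on the 12 libraries, and DESeq2 called 0 on the same libraries and 1 on these 2 groups alone, C1rl, which encodes a relative of the protease C1r. At an unadjusted p under 0.05, 1 was higher and 4 were lower in OCsEoS than in OCsEo. An adjusted p under 0.05 with a fold change within the threshold was found for Colec12, Cd59a and Calr in OCsEo and for Calr in OCsEoS. Among all genes tested, 17.4% and 23% had an adjusted p under 0.05 in these comparisons, whatever their fold change.

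Scarf1, the gene of a scavenger receptor that binds C1q, was at 32.4 to 39.7 CPM in OCsCtr, 20.3 to 27.1 CPM in OCsEo and 18.3 to 31.4 CPM in OCsEoS. All stimulated libraries were below all controls. The log2 fold change was -0.59 ± 0.15 (SE; adjusted p = 0.00808, edgeR) in OCsEo and -0.58 ± 0.15 (SE; adjusted p = 0.00658, edgeR) in OCsEoS. Cd59a, which encodes an inhibitor of the membrane attack complex, was at 47.2 CPM in OCsCtr, 37.8 CPM in OCsEo and 32.6 CPM in OCsEoS (group means). It was called lower in OCsEoS, by -0.53 ± 0.09 (SE; adjusted p = 2.66e-04, edgeR), and whether its reads were told apart from those of its paralog Cd59b was not tested. In OCsEoS, Scarf1 was no longer called without OCsEoS 1 or OCsEoS 4, nor Cd59a without OCsCtr 2 or OCsEoS 3, which left 1 gene called each time.

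**Figure D4:**
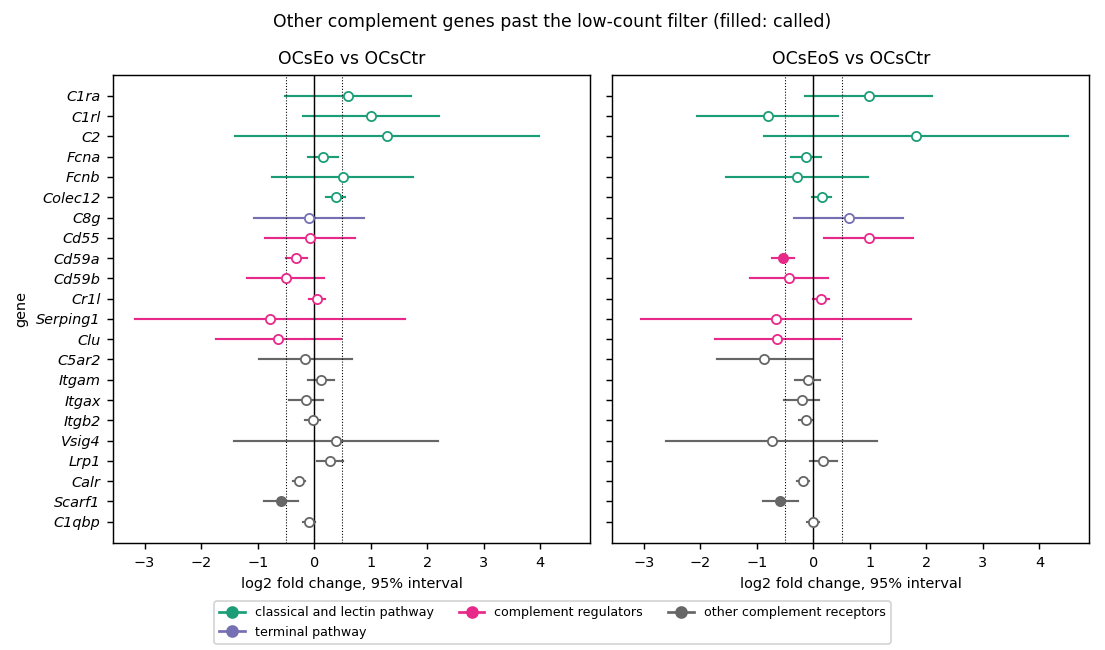
Log2 fold change (x axis) with 95% interval of the 22 other complement genes tested (y axis), colored by pathway or role, for OCsEo vs OCsCtr (left) and OCsEoS vs OCsCtr (right), with filled points for called genes. Scarf1 is filled to the left of 0 in both panels and Cd59a in the right panel, and no point to the right of 0 is filled.

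The genes whose levels were most like the mean of the C1q chains over the 12 libraries were searched among 10611 genes of sufficient level by Pearson correlation of log2 CPM. The 5 highest were Folr2 (r = 0.953), AA414768 (0.953), Stab1 (0.9497), Msr1 (0.929) and Igfbp4 (0.916), and after removal of the group means these values were 0.926, 0.886, 0.868, 0.924 and 0.813. Folr2, which encodes a folate receptor of macrophages, was at 28.6 CPM in OCsCtr, 51.7 CPM in OCsEo and 94.2 CPM in OCsEoS, the same order of groups as the chains. Stab1 and Msr1 encode scavenger receptors. Stab1 was at 44.1, 68.7 and 94.9 CPM and Msr1 at 202, 256 and 264 CPM in the same groups.

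For C3ar1 the genes most alike were Lamp2 (r = 0.960), a lysosomal membrane gene, Pid1 (0.956) and Serpinb6a (0.954), and for C5ar1 they were Fabp3 (0.958), Pros1 (0.943) and again Serpinb6a (0.934). C3ar1 and C5ar1 also correlated with each other (0.949, and 0.864 after removal of the group means). Among the 3 genes most like Cd93 were Cndp2 (0.962) and Atp6v0a1 (0.946). C3 stood apart from the other members, with correlations between -0.12 and 0.23 over the 12 libraries, although these were 0.41 to 0.65 after removal of the group means. It was most like Gbp5 (0.936) and Gbp2b (0.922), which encode interferon-inducible guanylate-binding proteins, and Micall1 (0.897). All these values are the top of a search over many genes in the same 12 libraries and are given as a description.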

How the data were processed

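Osteoclast RNA of 12 cultures was sequenced, and the authors cleaned the reads with fastp, aligned them with HISAT2 2.0.5 to GRCm38/mm10 and counted them per gene with featureCounts. The deposited values are raw counts, without normalization or filtering. The annotation release and strand setting are not given in the sources used here, and 99.1% of the gene identifiers are in GENCODE vM21, from which overlaps were taken. Promoter windows are from RefSeq. Analyses used DESeq2 1.42.0, edgeR 4.0.16 and limma 3.58.1 in R 4.3.3. Genes were filtered with filterByExpr (minimum count 10), libraries scaled by TMM, and 1 fit of all 12 libraries compared between 3 groups by edgeR's quasi-likelihood F-test, with p-values adjusted by Benjamini-Hochberg over 13681 genes and standard errors and intervals from that fit. The methods name DESeq2, which was run as an alternative. CPM were computed from the TMM-scaled library sizes, and correlations used log2 CPM with a prior count of 2. Steps were tested on simulated data. The members and gene lists were chosen with earlier results of these data known. Beside markers, genes near the floor and a neighbor of the cluster, genes named are the members, other complement genes called or past the p threshold alone, and the 5 genes most correlated with the mean of the C1q chains or 3 with each other member tested except Cfp. A few genes of these lists are not reported here.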

Additional observations from a re-analysis of the deposited data

Results flagged for a closer look

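Among the members, 6 values, from 5 libraries, stood far from the other 3 of their group by Dixon's test at the 95% level, which chance gives in about 1 in 20 of the groups tested, here 26. C3 was at 41.7 CPM in OCsCtr 4 and at 31.2 CPM in OCsEoS 2, both above the rest of their group. C3ar1 was at 168 CPM in OCsEo 4, the highest of that group. C5ar1 was at 21.5 CPM in OCsCtr 2, below the other controls, and at 47.3 CPM in OCsEoS 1, above the other OCsEoS libraries. Cd93 was at 50.5 CPM in OCsEoS 1, also the highest of its group.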

How the results depend on the processing

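DESeq2 on the 12 libraries called the same members as edgeR in each comparison, and DESeq2 on 2 groups called 5 in OCsEo (adding C1qb). Without a filter on low counts 2 members (C1qa and C1qc) were called between OCsEoS and OCsEo in place of 0, and 6 in OCsEo. The shares of all genes called are not given here for the settings of this section, so its counts of genes called are a description. Whether the replicate numbers pair the libraries was not settled, and the main fit did not use them. The correlation of deviations between libraries of the same number was -0.04 to 0.09. Between libraries of different numbers the highest value was 0.123, for OCsCtr 1 with OCsEo 2. However, 17 of 24 matches were best with the own number, a hint from the data and not from the design. With a replicate block 1 member (C1qa) was called between OCsEoS and OCsEo, 6 in OCsEo (adding C1qa and C1qb) and 5 in OCsEoS. A stricter fold threshold of 1 (log2) left 0 members and 0 other complement genes with eosinophils, but 3 members and 0 other genes with supernatant. When glmTreat tested changes beyond 0.5, 0 and 0 were left with eosinophils, but 1 and 0 with supernatant. Without a fold threshold 4 other complement genes were called in OCsEo, and DESeq2 on 2 groups called 1 between OCsEoS and OCsEo. When single libraries were left out, the members called ranged from 2 to 5 in OCsEo and from 3 to 5 in OCsEoS, and stayed at 0 between OCsEoS and OCsEo. The lowest values in both came without OCsCtr 2. Other complement genes called in OCsEoS ranged from 1 to 2. The changes of direction were among uncalled values. Over the libraries left out, C3 in OCsEoS ranged from -0.21 to 0.11 (without OCsCtr 4). Between OCsEoS and OCsEo, Cfp ranged from -0.089 to 0.040, C3ar1 from -0.13 to 0.017 and C5ar1 from -0.14 to 0.10, each highest without OCsEo 4, and C5ar1 was at 0.01 without OCsEoS 3 or OCsEoS 4. The cause was not tested. Of the members' other fold changes under these settings, 486 kept their direction and side of the thresholds, 22 lost a call and 14 gained one. Depth limits Cfb, which was near the floor.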
